A study of Homo sapiens with 5 samples.

Results

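The genes described here are 57 genes of the TGF-beta and BMP pathway, taken by name from a list of ligands, receptors, SMAD proteins, inhibitors and the 4 ID genes, out of 64837 entries in the count files. They were measured by RNA-Seq in NCI-H209, an established cell line from a human small cell lung cancer (SCLC). The control group was 3 libraries from untreated parental cells, and the co-cultured group was 2 libraries from the same line after 24 h in a Transwell system with human brain microvascular endothelial cells (HBMECs), which sat on a membrane above the tumor cells and shared their medium. The stated medium of the tumor cells was RPMI-1640 with fetal bovine serum, and the labels name no genetic change or drug in either group. For HBMECs the paper lists Nu-serum as a further supplement, and it does not say which medium the insert held during co-culture. The part of any difference in medium in the results was not tested. Control libraries were identified by their titles and by a treatment label that calls them untreated, whereas the protocol text attached to all 5 libraries describes the co-culture alone. The labels do not say whether the libraries of a group came from separate cultures or whether control wells held an empty insert, so p-values measure only the spread between these samples, which may be technical.

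TGF-beta, activin and BMP ligands bind pairs of type II and type I receptors on the cell surface. The type I receptor phosphorylates a receptor SMAD, SMAD2 or SMAD3 for TGF-beta and activin and SMAD1, SMAD5 or SMAD9 for BMP, which enters the nucleus with SMAD4. The ID genes are direct targets of the BMP branch and encode proteins that bind basic helix-loop-helix (bHLH) transcription factors and keep them from DNA, while SMAD6, SMAD7 and BAMBI are targets that inhibit the pathway in turn.

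The total on genes was 17317045 to 19157348 counts in the control libraries and 15457071 to 18918787 counts in the co-cultured libraries, so that 3 counts, taken as the floor of detection, equalled 0.157 to 0.194 CPM, the count scaled to a common library size. Floors cover counting error only. The unmapped share of reads was 8.13% to 8.48% in control and 15.9% to 16.8% after co-culture, and its part in the results was not tested. Control replicate 1 stood apart from the other control libraries on the second principal component, which held 18.3% of the variance. Of 15 SCLC neuroendocrine markers, 14 were expressed well enough to be tested, whereas CHGA had 0 or 1 counts in every library. Of 14 endothelial markers, CLEC14A, EMCN, ROBO4 and TIE1 stayed at 0 or 1 counts per library, and the summed level of all 14 was 9.57 to 20.9 CPM in control and 13.0 to 13.1 CPM in co-cultured cells.

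Of the 57 genes, 43 were expressed well enough to be tested, and 21 of them were called, that is, had an adjusted p under 0.05 by edgeR (quasi-likelihood test, Benjamini-Hochberg adjustment over 20360 genes), against 33.4% of all genes tested. After co-culture 12 were higher (27.9%) and 9 were lower (20.9%), where 18.4% and 15.0% of all genes tested were called higher and lower. Under upper-quartile scaling the pathway genes were split 10 higher and 10 lower, and all genes 3076 higher and 3929 lower, against 3750 and 3059 in the main comparison. The groups did not overlap for 28 of the 43 genes (65.1%), against 59.4% of all genes tested. The study's criterion, taken here to mean a log2 fold change (log2FC, co-cultured over control) beyond 1 in size together with an unadjusted p under 0.05, was met by 10 genes, 23.3% of the 43 against 10.5% of all genes tested. It was met by 4 genes that were higher, against 5.44% of all genes, and by 6 that were lower, against 5.01%. Standard errors (SE) of log2FC and adjusted p-values come from edgeR throughout. The median log2 fold change of the 43 genes was 0.01, and that of all genes tested was -0.03. The calls ran in both directions, and the genes of each role are described in turn. A level in bulk RNA cannot tell fewer expressing cells from less RNA per cell.

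**Figure D1:**
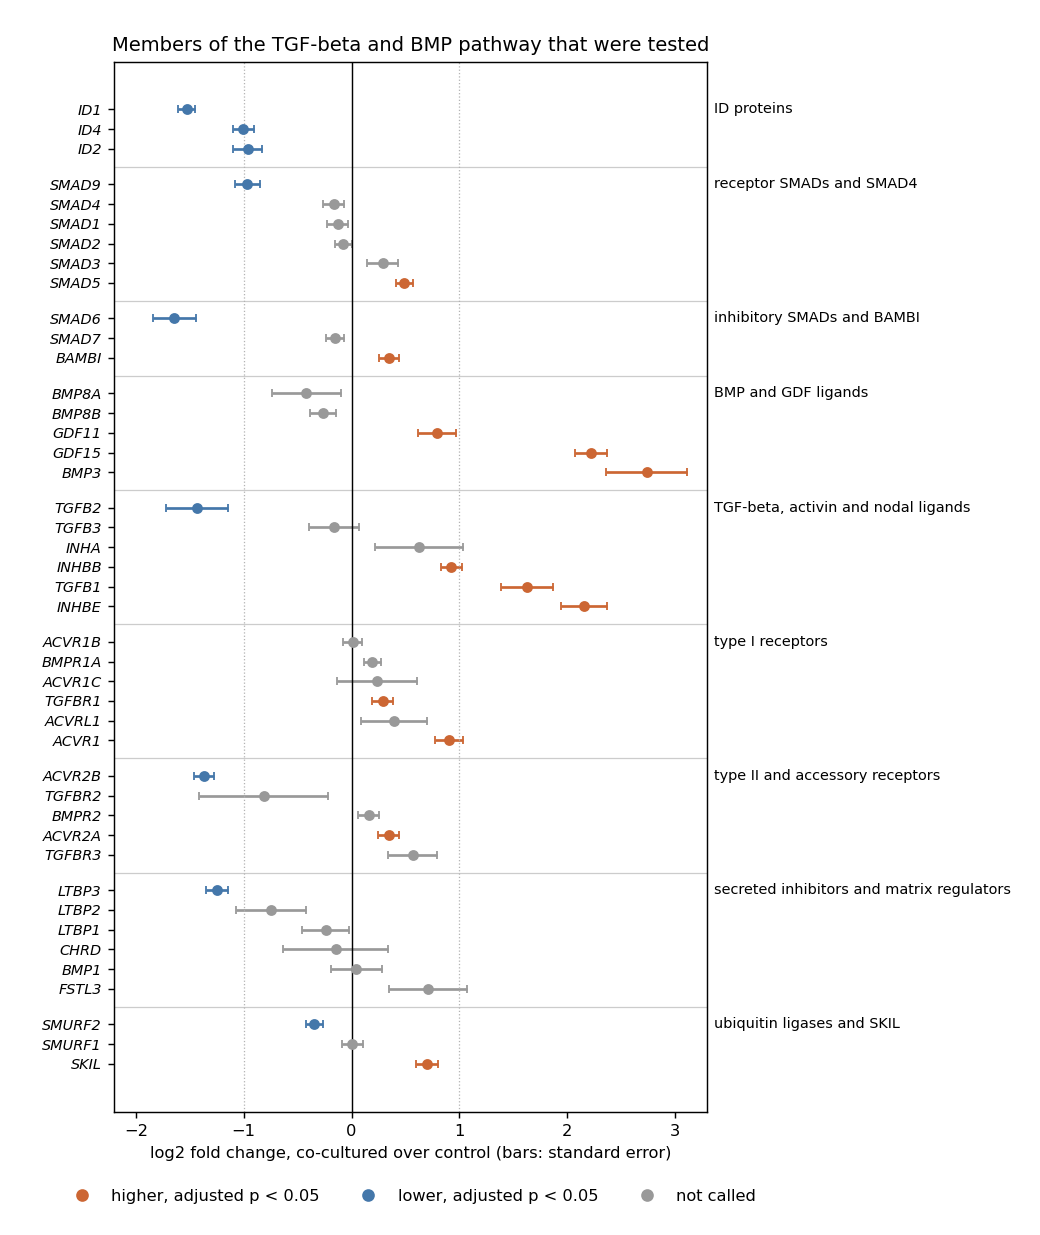
Change (log2 scale, co-cultured over control) of the 43 genes tested, with bars for the standard error, grouped by role and colored by the call at an adjusted p under 0.05. All 3 ID genes that were tested lie near or below -1, whereas the ligands run from -1.43 for TGFB2 to 2.74 for BMP3.

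All 3 ID genes that could be tested fell, to means 1.95-fold to 2.89-fold lower in the co-cultured cells. ID1, on chromosome 20 from 31605283 to 31606515 (GRCh38, GENCODE 29, as for all genes below), had 127, 118 and 122 CPM in the control libraries and 41.0 and 43.8 CPM in the co-cultured libraries. Its mean went from 122 ± 4.16 CPM over the control libraries (SD, n = 3) to 42.4 ± 1.94 CPM after co-culture (SD, n = 2) (log2FC -1.53, SE 0.0818, adjusted p = 1.75e-05). The gap between the groups was many times the spread within either. ID4, on chromosome 6 from 19837386 to 19840684, had 328, 292 and 319 CPM in control and 143 and 169.8 CPM in co-cultured cells. Its log2FC was -1.003 (SE 0.1004, adjusted p = 0.000177). ID2, on chromosome 2 from 8678845 to 8684453, had 343, 246 and 257 CPM in control and 143 and 146 CPM in co-cultured cells (log2FC -0.96, SE 0.138, adjusted p = 0.000989). Control replicate 1 held the highest ID2 level, and the other control libraries were still above both co-cultured libraries. ID3 had 0 counts in every library on either strand.

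Summed over the 4 genes, the ID level was 656 to 798 CPM in control and 326 to 359.9 CPM in co-cultured cells. To compare the genes with each other, levels were divided by the length of the merged exons. In control, ID4 had 134 ± 8.06 CPM per kilobase and ID2 had 128 ± 24.0 CPM per kilobase (SD, n = 3), which do not differ beyond their spread. ID1 was the lowest of the expressed genes, at 99.3 ± 3.38 CPM per kilobase in control (SD, n = 3). In co-cultured cells ID4 and ID2 stood at 66.7 ± 8.18 and 65.5 ± 1.16 CPM per kilobase, and ID1 at 34.4 ± 1.58 CPM per kilobase (SD, n = 2). ID1 was thus the lowest in both groups, whereas ID4 and ID2 did not differ beyond their spread in either. With the length of the longest transcript ID2, at 138 CPM per kilobase in control, came before ID4, again within the spread.

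**Figure D2:**
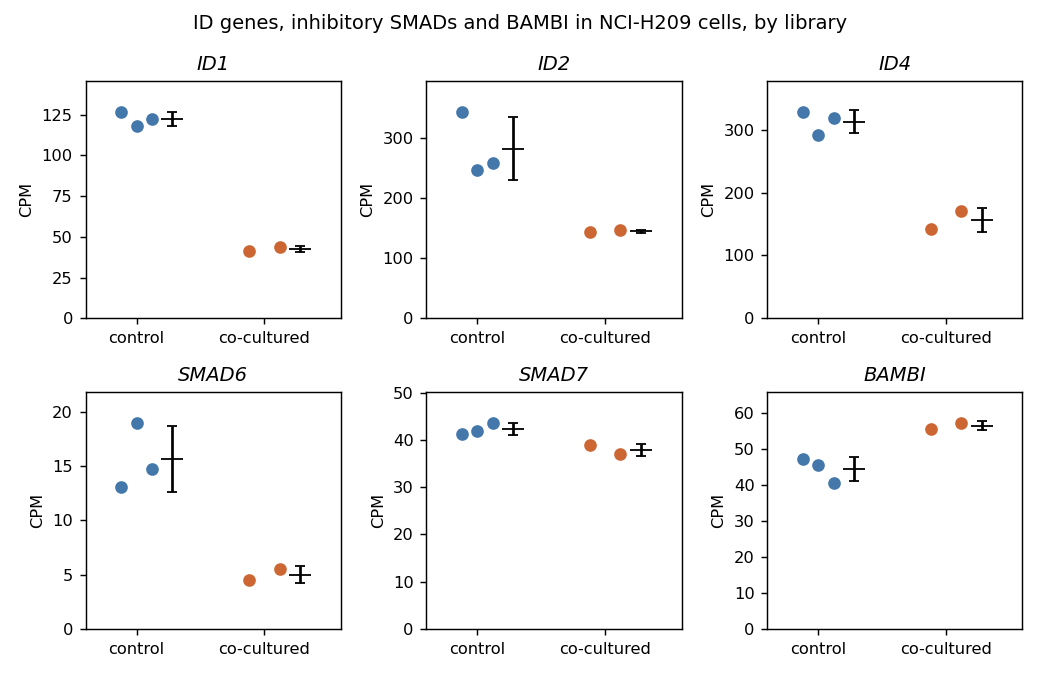
CPM of ID1, ID2, ID4, SMAD6, SMAD7 and BAMBI in each control library (left, n = 3) and each co-cultured library (right, n = 2), with the mean and SD beside the points and every axis starting at 0. For ID1, ID2, ID4 and SMAD6 all co-cultured libraries lie well below all control libraries, whereas SMAD7 went from 42.3 to 37.9 CPM and BAMBI from 44.3 to 56.3 CPM.

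Of the inhibitors that are themselves targets of the pathway, SMAD6 was called lower, BAMBI higher and SMAD7 was not called. SMAD6, which blocks mainly the BMP branch, lies on chromosome 15 from 66702228 to 66782848 and had 13.1, 19.0 and 14.7 CPM in control and 4.48 and 5.55 CPM in co-cultured cells. It went from 15.6 ± 3.04 CPM over the control libraries (SD, n = 3) to 5.02 ± 0.754 CPM after co-culture (SD, n = 2) (log2FC -1.64, SE 0.200, adjusted p = 0.000433), the lowest log2FC of the 43 genes. SMAD7, which blocks both branches, had 41.2, 42.0 and 43.7 CPM in control and 38.9 and 37.0 CPM in co-cultured cells. Although no co-cultured library reached the control range, its log2FC of -0.16 was not called (SE 0.0846, adjusted p = 0.185). BAMBI, a receptor-like protein without a kinase domain, had 47.0, 45.3 and 40.5 CPM in control and 55.4 and 57.2 CPM in co-cultured cells. It rose by 0.35 on the log2 scale (SE 0.0900, adjusted p = 0.0166). This call was lost without control replicate 3 (adjusted p = 0.0569) and with replicate number as a block in the model (0.138). It was also lost without co-cultured replicate 1 (log2FC 0.38) or co-cultured replicate 2 (log2FC 0.33).

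The promoters of the ID genes and SMAD6 are shown because these are the targets that fell. RefSeq promoter sequences of GRCh38.p14 were matched to 50 of the 57 genes, including all 9 that were lower, and the window searched was the 240 bases from 250 to 11 bases upstream of the RefSeq start. Windows are printed on the plus strand, 5′ to 3′, with CCAAT or its complement in capitals. They lie at chr20:31605039-31605278 for ID1, chr6:19837120-19837359 for ID4 and chr15:66701986-66702225 for SMAD6.
ID1: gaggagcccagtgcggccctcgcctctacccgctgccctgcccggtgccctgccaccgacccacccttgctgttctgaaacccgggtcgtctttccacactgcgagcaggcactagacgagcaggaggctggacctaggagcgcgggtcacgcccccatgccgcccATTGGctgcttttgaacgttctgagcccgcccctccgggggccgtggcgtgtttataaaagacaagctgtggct
ID4: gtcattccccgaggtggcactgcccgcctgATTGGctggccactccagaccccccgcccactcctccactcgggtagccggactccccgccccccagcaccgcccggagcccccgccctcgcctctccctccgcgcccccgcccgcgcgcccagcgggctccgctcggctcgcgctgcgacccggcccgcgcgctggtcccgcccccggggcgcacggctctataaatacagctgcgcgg
SMAD6: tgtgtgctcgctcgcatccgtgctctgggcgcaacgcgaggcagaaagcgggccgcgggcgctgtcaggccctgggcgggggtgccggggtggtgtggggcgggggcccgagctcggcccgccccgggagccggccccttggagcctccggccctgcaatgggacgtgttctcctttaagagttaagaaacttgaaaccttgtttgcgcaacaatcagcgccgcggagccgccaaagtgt
The GGCGCC element, a form of the GC-rich site that BMP SMADs can bind, was searched on both strands and was in 0 of these 3 windows. It was in 0 of the 9 genes that were lower, 4 of the 10 matched genes that were higher and 7 of the 20 that were tested and not called, while 15.2% of all 27305 promoters in the table held it. CAGAC, the core of the SMAD binding element, was in 2 of 9, 5 of 10 and 7 of 20 on either strand, against 36.7% of all promoters, and ID4 was among the 2. Only the window was searched, so these counts cannot say whether a gene has such sites farther upstream or elsewhere.

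The ID1, ID2 and ID4 windows shared an 8-base run, ATTGGCTG, that contains the complement of CCAAT. This run was noticed after the sequences had been read and is given as a description. The ID2 window, of which 192 bases lie in annotated exons, is shown only around it. In the following stretches of 28 bases on the plus strand the capitals mark it.
ID1: catgccgcccATTGGCTGcttttgaacg
ID2: ccccgcggggATTGGCTGcgaacgcgga
ID4: tgcccgcctgATTGGCTGgccactccag
The stretches lie at chr20:31605195-31605222, chr2:8681874-8681901 and chr6:19837140-19837167, and the run begins 84, 172 and 220 bases upstream of the RefSeq start. On either strand it was in 989 of the 27305 promoters (3.62%). Among the matched genes of the pathway it was in 7 of 50, namely 3 of the 9 that were lower (the ID genes), 2 of the 10 that were higher, 1 of the 20 not called and 1 that was not tested. CCAAT itself, on either strand, was in 3 of 9, 5 of 10 and 7 of 20, against 32.5% of all promoters. Its share among the genes that were lower, 33.3%, was thus near that of all promoters.

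Of the receptor SMADs of the BMP branch, SMAD5 rose and SMAD9 fell. SMAD5 had 118, 106 and 107 CPM in control and 151 and 159 CPM in co-cultured cells (log2FC 0.49, SE 0.0808, adjusted p = 0.00194). SMAD9 had 141, 177 and 178 CPM in control and 80.5 and 88.8 CPM in co-cultured cells (log2FC -0.97, SE 0.116, adjusted p = 0.000398). For both genes the groups did not overlap. SMAD1, the other receptor SMAD of this branch, had a log2FC of -0.13 (adjusted p = 0.354). On the scale per kilobase SMAD9 was at 28.9 ± 3.69 and SMAD5 at 12.2 ± 0.736 in control (SD, n = 3), and in co-cultured cells they were at 14.8 ± 1.03 and 17.2 ± 0.658 (SD, n = 2). Their order therefore turned, from SMAD9 above SMAD5 in control to SMAD5 above SMAD9 in co-cultured cells, also with the length of the longest transcript. The TGF-beta and activin SMADs and the shared partner were not called, with log2FCs of -0.07 for SMAD2, 0.29 for SMAD3 and -0.16 for SMAD4. Without control replicate 1, SMAD4 was called at -0.24 (adjusted p = 0.00223).

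Among 11 BMP and GDF ligands, 5 were tested and 3 were higher in the co-cultured cells. GDF15, a distant member of the family that signals through GFRAL rather than a SMAD receptor, lies on chromosome 19 from 18374731 to 18389176. It had 7.28, 5.09 and 5.99 CPM in control and 28.9 and 28.4 CPM in co-cultured cells (log2FC 2.22, SE 0.149, adjusted p = 3.53e-05). BMP3, which opposes the other BMPs at the type II receptor, lies on chromosome 4 from 81030965 to 81057531. It had 6, 6 and 4 counts in control and 38 and 27 counts in co-cultured cells, and its mean went from 0.285 ± 0.0699 CPM over the control libraries (SD, n = 3) to 1.93 ± 0.207 CPM after co-culture (SD, n = 2). Its log2 fold change of 2.74 was the highest of the 43 genes (SE 0.376, adjusted p = 0.000801), although its level stayed low. GDF11, which signals through the activin type II receptors, had 25.4, 41.5 and 40.4 CPM in control and 60.6 and 63.2 CPM in co-cultured cells (log2FC 0.79, SE 0.177, adjusted p = 0.00850). Its call was lost without co-cultured replicate 1 (adjusted p = 0.0661) or co-cultured replicate 2 (0.0744).

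BMP2, BMP4 and BMP6, classical BMP ligands, were close to the floor. BMP2 had 6, 6 and 1 counts in control and 8 and 17 counts in co-cultured cells, BMP4 had 2, 1 and 4 counts against 7 and 4, and BMP6 had 0, 4 and 2 counts against 4 and 9. None of these 3 was tested, since each was under the filter on low counts in the main comparison. With a filter of 1 count in any library, BMP2 had a log2FC of 1.69 (adjusted p = 0.0242). BMP5 and BMP7 stayed at 0 or 1 counts per library, and GDF10 had 0 counts. BMP8B, at 68.3 to 90.8 CPM in control and 62.9 to 64.9 CPM in co-cultured cells, and BMP8A, near 1 CPM, were not called, with log2FCs of -0.27 and -0.42. They are near-identical copies, and reads that map to both are counted for neither, so both levels may be too low. At BMP8A 72.8% of the reads lay on the opposite strand. BMP8B was called at -0.34 under upper-quartile scaling (adjusted p = 0.0378).

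**Figure D3:**
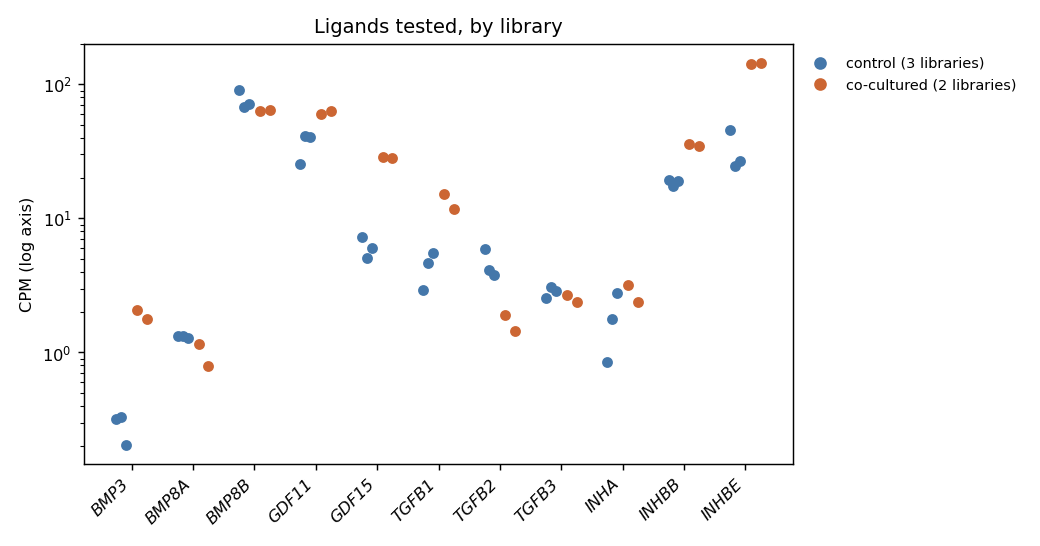
CPM on a log axis of the 11 ligands tested, for each control library and each co-cultured library. GDF15 and INHBE lie at 28.4 to 28.9 and at 143 to 144 CPM in the co-cultured libraries, above all control libraries, whereas TGFB2 lies below all of them.

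Of the 8 TGF-beta, activin and nodal ligands 6 were tested, 3 of which were higher and 1 lower. INHBE, the subunit of activin E, lies on chromosome 12 from 57452323 to 57459280 and had 45.6, 24.5 and 26.6 CPM in control and 143 and 144 CPM in co-cultured cells. Its log2 fold change was 2.16 (SE 0.213, adjusted p = 0.000164). INHBB, the subunit of activin B, had 19.4, 17.6 and 19.1 CPM in control and 36.1 and 35.0 CPM in co-cultured cells (log2FC 0.93, SE 0.0976, adjusted p = 0.000218). Both subunits were higher in each co-cultured library than in every control library. INHBA, the subunit of activin A, had 16, 3 and 0 counts in control and 1 and 1 counts in co-cultured cells, and NODAL had at most 1 count in any library. INHA, whose product joins a beta subunit to form inhibin, ran from 0.851 to 2.76 CPM in control and from 2.38 to 3.17 CPM in co-cultured cells and was not called (log2FC 0.63, adjusted p = 0.266).

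TGFB1 and TGFB2, which encode isoforms of TGF-beta with the same receptors, moved in opposite directions. TGFB1, on the minus strand of chromosome 19 from 41301587 to 41353911, had 2.92, 4.64 and 5.53 CPM in control and 15.2 and 11.8 CPM in co-cultured cells (log2FC 1.63, SE 0.240, adjusted p = 0.00113). Most reads at this locus, 87.9%, lay on the opposite strand, at 877 to 1105 counts per library. These reads changed little, with 56.2 to 61.1 CPM in control and 54.6 to 57.9 CPM in co-cultured cells. Counts without regard to strand gave 1.41 (adjusted p = 0.00246 by edgeR). So large a change is not possible in counts that held most of the opposite-strand reads. That fit therefore does not test the rise with those reads added. TGFB2, on chromosome 1 from 218346235 to 218444619, had 5.90, 4.09 and 3.79 CPM in control and 1.91 and 1.45 CPM in co-cultured cells (log2FC -1.43, SE 0.285, adjusted p = 0.00486). Without co-cultured replicate 2 its log2 fold change was -1.26 (adjusted p = 0.0601). Per kilobase, TGFB1 was at 1.35 ± 0.409 and TGFB2 at 0.892 ± 0.222 in control (SD, n = 3), and they were at 4.17 ± 0.762 and 0.327 ± 0.0631 in co-cultured cells (SD, n = 2). The gap between the isoforms in control was little more than the SD of TGFB1, and in co-cultured cells it was several times that SD. TGFB3 was not called (log2FC -0.16, adjusted p = 0.621), and with unstranded counts, which add the reads of its opposite strand, it was called at -0.58 (adjusted p = 0.0228).

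Of the type I receptors, ACVR1 changed most. ACVR1, also called ALK2, transmits BMP signals and had 10.8, 9.84 and 12.4 CPM in control and 20.7 and 20.6 CPM in co-cultured cells (log2FC 0.90, SE 0.130, adjusted p = 0.00103). TGFBR1, the type I receptor of TGF-beta, was called at 0.29 (adjusted p = 0.0446). Its call was lost without control replicate 2 (0.114) or control replicate 3 (0.0863), under upper-quartile scaling (0.0829) and with the replicate block. It was also lost without co-cultured replicate 1 or co-cultured replicate 2. BMPR1A, a type I receptor of the BMPs, had 53.7 to 57.3 CPM in control and 62.2 to 64.4 CPM in co-cultured cells (log2FC 0.19, adjusted p = 0.0849). Without control replicate 1 it was called at 0.17 (adjusted p = 0.0369), as was ACVRL1 at 0.72 (adjusted p = 0.0331), which had a log2FC of 0.39 with all libraries. ACVR1B and ACVR1C had log2FCs of 0.01 and 0.24 and were not called, and BMPR1B had 1 to 6 counts per library.

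The 2 activin type II receptors differed in direction. ACVR2B, on chromosome 3 from 38453851 to 38493142, had 71.1, 73.1 and 79.0 CPM in control and 27.1 and 30.6 CPM in co-cultured cells, a 2.58-fold lower mean (SE 0.0947 on the log2 scale, adjusted p = 4.05e-05). ACVR2A had 24.4, 23.4 and 22.6 CPM in control and 28.8 and 30.8 CPM in co-cultured cells (log2FC 0.34, adjusted p = 0.0236). The ACVR2A call was lost without control replicate 2 (0.0613) or control replicate 3 (0.0752), under upper-quartile scaling (0.0563) and with the replicate block. It was also lost without co-cultured replicate 1 or co-cultured replicate 2. Per kilobase, ACVR2B was at 4.72 ± 0.259 and ACVR2A at 3.46 ± 0.127 in control (SD, n = 3). In co-cultured cells ACVR2B was at 1.83 ± 0.156 and ACVR2A at 4.40 ± 0.207 (SD, n = 2), so that ACVR2A became the more abundant transcript, also with the length of the longest transcript.

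BMPR2, the type II receptor of the BMPs, was the most abundant receptor per kilobase in control at 16.7 ± 1.76, followed by TGFBR1 at 15.0 ± 1.62 (SD, n = 3), and these do not differ beyond their spread. ACVR1B followed at 9.34 and BMPR1A at 4.86, close to ACVR2B, and ACVR1 stood at 2.77. The log2 fold change of BMPR2 was 0.16 (adjusted p = 0.234). It was called at 0.25 (adjusted p = 0.00131) once control replicate 1, the library with its highest control level, was left out. TGFBR2, which every TGF-beta signal through TGFBR1 requires, was among the lowest at 0.206 CPM per kilobase, with 26, 21 and 7 counts in control and 7 and 11 after co-culture. In control replicates 1 and 2, TGFBR2 also had 14 and 15 reads on the opposite strand, where the other libraries had 0. The accessory receptor TGFBR3 ran from 7.07 to 12.4 CPM in control and from 12.2 to 17.1 CPM in co-cultured cells, so that the groups overlapped (log2FC 0.57, adjusted p = 0.0860). It was called without control replicate 2 at an adjusted p of 0.0426. ENG, a co-receptor best known from endothelial cells, was near the floor at 2 to 9 counts per library.

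**Figure D4:**
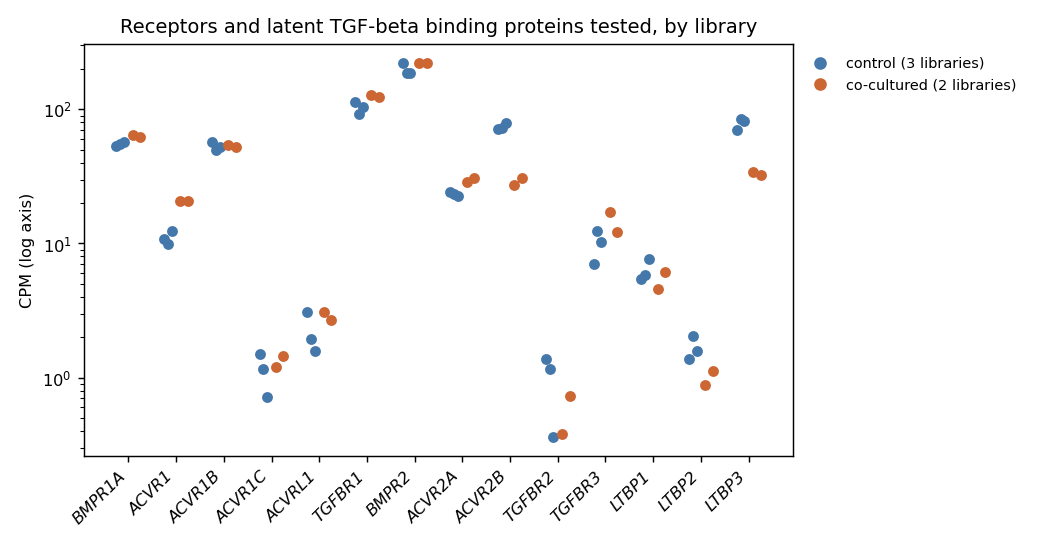
CPM on a log axis of the receptors and latent TGF-beta binding proteins tested, for each control library and each co-cultured library. In both co-cultured libraries ACVR2B and LTBP3 lie below, and ACVR1 above, every control library, whereas BMPR2 and ACVR1B overlap between the groups.

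Among the secreted regulators, LTBP3 was called and the other 5 tested were not. LTBP3, which ties latent TGF-beta to the matrix, lies on chromosome 11 from 65538805 to 65558930. It had 70.7, 85.1 and 81.4 CPM in control and 34.1 and 32.4 CPM in co-cultured cells (log2FC -1.25, SE 0.101, adjusted p = 6.77e-05). Its relatives LTBP1 and LTBP2 had log2FCs of -0.24 (adjusted p = 0.433) and -0.75 (adjusted p = 0.110), and LTBP2 was called without control replicate 1 at -0.86 (adjusted p = 0.0440). LTBP3 was the most abundant of the 3 per kilobase, at 7.68 ± 0.725 in control (SD, n = 3) against 0.860 for LTBP1 and 0.184 for LTBP2. The BMP antagonists were scarce. GREM1 had 0 counts in every library, NOG at most 1 and FST at most 6, and CHRD, at 0.383 to 0.774 CPM over all libraries, had a log2FC of -0.15 (adjusted p = 0.842). FSTL3, which binds activins, and BMP1, the protease that cuts chordin, had log2FCs of 0.71 (adjusted p = 0.164) and 0.04 (adjusted p = 0.906).

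SKIL, a nuclear corepressor of SMADs that TGF-beta itself induces, had 86.0, 67.9 and 70.6 CPM in control and 122 and 121 CPM in co-cultured cells (log2FC 0.70, SE 0.104, adjusted p = 0.00121). SMURF2, a ubiquitin ligase for SMADs and receptors, had 59.8, 60.4 and 59.9 CPM in control and 45.6 and 48.8 CPM in co-cultured cells (log2FC -0.35, SE 0.0787, adjusted p = 0.00901). The fall of SMURF2 was small beside that of the ID genes. Its call was lost with the replicate block and without co-cultured replicate 1 or co-cultured replicate 2. The paralog SMURF1 had a log2FC of 0.01 (adjusted p = 0.958).

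Further genes of the pathway were taken from lists written from general knowledge, but with earlier results of these data known. The shares called in each are therefore descriptions, to be read beside the 18.4% higher and 15.0% lower of all genes tested. Of 14 other ligands of the family 5 were tested, and 3 of them (60.0%) were lower and 0 higher by edgeR (0 higher at an unadjusted p under 0.05 and 0 by DESeq2), with a median log2 fold change of -1.53, or -1.45 with a gene at the floor set to its bound. AMH, the anti-Mullerian hormone, went from 17.8 ± 2.15 CPM over the control libraries (SD, n = 3) to 8.56 ± 0.0431 CPM after co-culture (SD, n = 2), and GDF9 and LEFTY1 had log2FCs of -1.68 and -1.53, although 91.6% of the reads at GDF9 lay on the opposite strand. The call of LEFTY1 was lost without control replicate 2 (adjusted p = 0.0796), co-cultured replicate 1 (0.0785) or co-cultured replicate 2 (0.221), with DESeq2 (0.0932), with unstranded counts (0.0568) and with the replicate block (0.0504). Its log2FC was -2.23 without co-cultured replicate 1 and -1.12 without co-cultured replicate 2. Without control replicate 1, 5 of these ligands were lower. Of 25 other extracellular regulators 16 were tested, with 1 higher (6.25%), 4 lower (25.0%) and a median log2 fold change of -0.20. The BMP antagonist CHRDL1 fell by 1.60 and the nodal and BMP antagonist CER1 by 1.19 on the log2 scale, while the chordin cofactor TWSG1 rose by 0.64. The call of CER1 was lost without co-cultured replicate 1 (adjusted p = 0.0766). FBN1, which encodes fibrillin, was called at -0.67, with an adjusted p of 0.0851 by DESeq2, 0.0630 with unstranded counts and 0.0919 with the replicate block. Its adjusted p was 0.134 without control replicate 2 and 0.0870 without control replicate 3. It was also not called without co-cultured replicate 1 (log2FC -0.50) or co-cultured replicate 2 (log2FC -0.83). In this list 1 gene was lower without co-cultured replicate 1, and 2 were lower without co-cultured replicate 2 or without control replicate 2.

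All 24 other intracellular regulators were tested, with 6 higher (25.0%) and 3 lower (12.5%), shares near those of all genes tested, and a median log2FC of 0.11. STRAP, a partner of SMAD7, rose by 0.61, and the SMAD corepressor TGIF1 fell by 0.67 on the log2 scale. XIAP, a cofactor of TGF-beta signaling, rose by 0.44, and the ubiquitin ligase ITCH was called at 0.30. The ITCH call was lost with the replicate block (adjusted p = 0.0842). It was also lost without co-cultured replicate 1 (log2FC 0.33) or co-cultured replicate 2 (log2FC 0.28). The counts for these regulators depended on single libraries, with 10 higher and 5 lower without control replicate 1, and 2 higher and 1 lower without co-cultured replicate 1 or without co-cultured replicate 2.

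Of 32 genes that TGF-beta is known to induce 25 were tested, and 15 of these (60.0%) were higher in the co-cultured cells and 3 (12%) lower, against 18.4% and 15.0% of all genes tested (median log2FC 1.17). KLF10, named for its early induction by TGF-beta, went from 76.6 ± 3.67 CPM over the control libraries (SD, n = 3) to 173 ± 13.7 CPM after co-culture (SD, n = 2) (log2FC 1.17, adjusted p = 4.14e-05). TSC22D1 and the cell cycle inhibitor CDKN1A rose by 0.99 and 1.71 on the log2 scale. NEDD9, an adhesion scaffold, had 13, 26 and 44 counts in control and 670 and 250 counts in co-cultured cells. The number lower was 1 without co-cultured replicate 1 or without co-cultured replicate 2. PMEPA1, a common readout of TGF-beta signaling, is named here after its values were seen. It had a log2FC of -0.03 (adjusted p = 0.965). Whether TGF-beta or another signal raised the genes of this list was not tested.

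Of 18 genes that BMP is known to induce, other than the ID genes and inhibitory SMADs, 13 were tested, with 6 higher (46.2%), 2 lower (15.4%, near the share of all genes) and a median log2 fold change of 0.32, and 3 were higher without co-cultured replicate 1 or without co-cultured replicate 2. ATOH8, a bHLH factor downstream of BMP SMADs, went from 8.80 ± 0.949 CPM over the control libraries (SD, n = 3) to 4.03 ± 0.181 CPM after co-culture (SD, n = 2) (log2FC -1.12, SE 0.177, adjusted p = 0.00155). HEY1 fell by 0.66 on the log2 scale (adjusted p = 0.00261), whereas its paralog HEY2 rose by 1.25 (adjusted p = 0.00159). JUNB, which is also in the TGF-beta list, rose by 1.25. HEY1 and HEY2 also answer to Notch and JUNB to many stimuli.

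**Figure D5:**
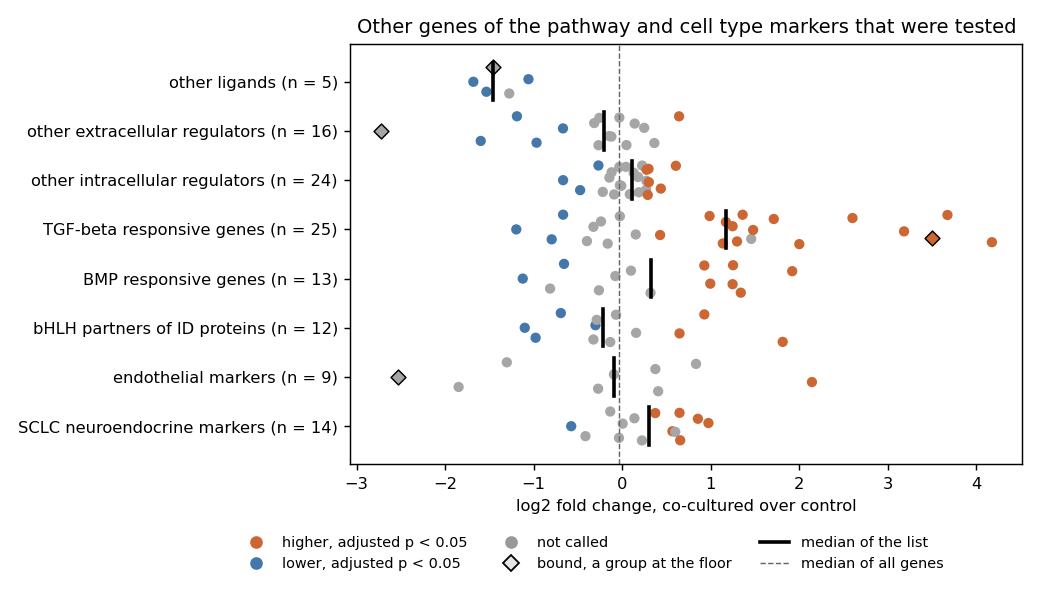
Change (log2 scale, co-cultured over control) of the tested genes of 6 further lists of the pathway and its partners and 2 lists of cell type markers, with a bar at each list's median and a dashed line at the median of all genes tested, -0.03. Diamonds are bounds for genes with at most 3 counts in every library of a group. The genes responsive to TGF-beta have the highest median, 1.17, and the BMP-responsive genes spread over both directions.

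Of 17 bHLH factors that ID proteins can bind, or that act in the same network, 12 were tested, with 3 higher (25.0%) and 4 lower (33.3%), against 18.4% and 15.0% of all genes tested (median log2FC -0.21). HES6, a partner of the neuronal bHLH factors, went from 289 ± 28.6 CPM over the control libraries (SD, n = 3) to 135 ± 6.35 CPM after co-culture (SD, n = 2), a log2 fold change of -1.10 (adjusted p = 0.000115). NEUROG1 and NEUROD4 had log2FCs of -0.98 and 1.81, and the call of NEUROD4 was lost without co-cultured replicate 1 (adjusted p = 0.0814). Of the 12 factors, 2 were lower without control replicate 3, without co-cultured replicate 1 or without co-cultured replicate 2, and 1 was higher without co-cultured replicate 1. Of the 14 neuroendocrine markers tested, 6 were higher (42.9%), 1 was lower (7.14%) and the median log2 fold change was 0.30. The number higher was 3 without co-cultured replicate 1 and 9 without control replicate 1, and the number lower ran from 0 to 2 over the alternatives.

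Endothelial RNA in the tumor cell libraries was looked for because ID1, SMAD6, ENG and ACVRL1 are also abundant in endothelial cells. Of the 14 markers 9 were tested, with 1 higher and 0 lower by edgeR (1 lower at an unadjusted p under 0.05, and 1 by DESeq2) and a median log2 fold change of -0.09, and without control replicate 3 the number lower was 3. ESAM had 3, 4 and 6 counts in control and 21 and 14 counts in co-cultured cells (log2FC 2.14, adjusted p = 0.00666), and its call was lost without co-cultured replicate 1 (adjusted p = 0.0968). PECAM1 had 14, 10 and 3 counts against 18 and 11, and CDH5 had 11, 8 and 4 counts against 7 and 11. VWF, the most abundant, went from 5.69 ± 2.40 CPM over the control libraries (SD, n = 3) to 5.35 ± 0.841 CPM after co-culture (SD, n = 2). FLT1, TEK and KDR had 24 to 37 counts each in control replicates 1 and 2, and at most 12 in any other library. ERG and EGFL7 had log2FCs of -0.27 and 0.38, and CLDN5 had 1 to 7 counts per library. The part of these counts in the results was not tested.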

How the data were processed

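Libraries were made from rRNA-depleted total RNA of NCI-H209 cells with a directional kit, 3 from control and 2 from co-cultured cells. The authors deposited counts of reads per gene, without normalization, as STAR writes them, and the submitters' processing notes name CASAVA 1.8, STAR 2.6.1b, DESeq2 and GRCh38. The counts of the strand expected for the kit were used, which held 92.3% to 93.1% of reads on genes. The authors also deposited a table of their comparison (means, log2 fold changes, standard errors and p-values), whose gene names were used and whose values were not. It named 52 of the 57 genes, and 5 were matched by their GENCODE 29 name.

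Counts were filtered with filterByExpr, normalized by TMM and compared with the quasi-likelihood test of edgeR 4.0.16 in R 4.3.3, with Benjamini-Hochberg adjustment over 20360 genes, and a gene was called at an adjusted p under 0.05. CPM uses TMM-scaled library sizes. Each standard error was taken as the size of the log2 fold change over the root of its F statistic. An exact permutation test of 3 libraries against 2 cannot give a p under 0.1. The steps were tested on simulated data. Genes at 3 counts or fewer in every library of a group were taken as at the floor.

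The pathway genes and all lists were chosen with earlier results of these data known. Full statistics are given for the ID genes, SMAD6, SMAD7, BAMBI and each gene past the study's criterion with an adjusted p under 0.05, for each further list up to 4 called genes with the smallest p are named, and endothelial markers are named where they had counts over the floor. Some genes of the further lists are counted but not reported by name here. The alternatives tried were leaving out each library, a replicate block, scaling by median-ratio size factors or the upper quartile, DESeq2 1.42.0, looser and stricter count filters, unstranded counts and levels over the longest transcript. Plots were drawn with matplotlib 3.10.9.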

Additional observations from a re-analysis of the deposited data

How the results depend on the processing

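Every pathway gene called kept its direction under each alternative that tested it. Of the 21 calls, 21 were kept with DESeq2, median-ratio size factors, unstranded counts and a filter of 1 count in any library, 20 with at least 10 counts in every library, which leaves BMP3 untested, and 19 under upper-quartile scaling. Leaving out single libraries gave 2734 to 9897 genes called across all genes, the fewest without co-cultured replicate 1 or 2, where the lone co-cultured library is assumed to vary like the control group. Genes of the pathway called higher ran from 8 to 15, those called lower from 7 to 11 and those past the study's criterion from 9 to 13 over all settings. Genes near zero change turned in sign without being called. ACVR1B and SMURF1 were at -0.0013 and -0.0034 with at least 10 counts in every library, and ACVR1B, BMP1 and SMURF1 were at -0.0678, -0.0359 and -0.0719 under upper-quartile scaling. Over the fits without a library, log2FC spanned -0.0344 to 0.0683 for ACVR1B, -0.0013 to 0.5003 for ACVR1C, -0.5592 to 0.2213 for CHRD, -0.1341 to 0.1988 for BMP1, -0.0516 to 0.0576 for SMURF1, -0.0904 to 0.828 for CDH5 and -0.2683 to 0.3079 for VWF, and the cause was not tested.

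Replicate numbers are shared between the groups, and the deviations of same-numbered libraries had correlations of -0.114 and -0.067. With so few libraries per group, these values cannot show whether same-numbered libraries were paired or shared a batch. The labels do not say so either. Control replicate 3 shares its number with no co-cultured library, so under the replicate block it adds nothing to the difference between the groups. The block is therefore not a separate check from the fit without control replicate 3. With the replicate block 4824 genes were called, 10 of the pathway higher and 8 lower, and 12 met the criterion. Of the 21 calls 17 were kept, and those of BAMBI, TGFBR1, ACVR2A and SMURF2 were lost. INHA was added at 1.12 (adjusted p = 0.0397), and ACVR1C and BMP1 were at -0.0034 and -0.0406. Depth limits what can be said of the 14 genes that were not tested, 7 of which had at most 3 counts in every library.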
